A study of Homo sapiens with 40 samples.

Results

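The response to interleukin 13 (IL-13) was measured in total RNA of BEAS-2B cells with a knockdown of IGF2BP3, in 10 of the 40 libraries of the series. BEAS-2B is an immortalised human lung epithelial line, and IGF2BP3 is an RNA-binding protein that binds mRNAs and affects their stability and translation. The 10 libraries were chosen by their labels: input RNA (RNA taken before polysome separation), knockdown genotype, 5 libraries of unstimulated cells and 5 of cells given IL-13. Both groups were grown in RPMI with serum, held in 2% medium overnight and then harvested, the treated cells 24 h after IL-13 at 100 ng/ml per the sample labels (overnight in the series' design text). The growth protocol describes constitutive shControl and shIGF2BP3 lines, while the sample titles write siC and siIGF2BP3, and hairpin lines are assumed here. With a single line for each, an effect of losing IGF2BP3 cannot be told apart from other properties of these cells. The other libraries used here, for comparison only, were 10 of input RNA from the control line under the same starvation and treatment, and 10 of polysome-bound RNA from the knockdown line. Nothing in the labels says that the 5 libraries of a group came from separate cultures. The p-values therefore measure a spread between libraries, which may be technical. Those of edgeR use the spread within groups over all 40 libraries, not that of the 10 alone. As edgeR's coefficient of variation, this spread was 0.43, against 0.273 in a fit of the 10 libraries.

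IL-13 is a type 2 cytokine of allergic airway inflammation. It binds IL13RA1, which pairs with IL4R, and the kinases JAK1, TYK2 and JAK2 bound to these chains phosphorylate STAT6. STAT6 dimers then enter the nucleus and switch on genes such as the eotaxin CCL26 and the feedback inhibitors SOCS1 and CISH, which bind activated receptors or kinases and dampen the signal. In airway epithelium the same pathway is known for mucus and goblet cell genes, lipid oxidation by ALOX15 and serpins.

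STAT6 binds the palindrome TTCNNNNGAA and most other STAT proteins TTCNNNGAA, so the stretch before the start site is shown for the 4 genes that passed the test below, belong to the list of known IL-13-induced genes and have a RefSeq start-site entry. The sequences are the 250 bases before the RefSeq start site on GRCh38.p14, 5′ to 3′, with matches to either palindrome in capitals. They lie at chr3:50611775-50612024 on the minus strand (CISH), chr1:119506953-119507202 on the plus strand (HSD3B1), chr7:75789747-75789996 on the minus strand (CCL26) and chr16:11256205-11256454 on the minus strand (SOCS1).
CISH: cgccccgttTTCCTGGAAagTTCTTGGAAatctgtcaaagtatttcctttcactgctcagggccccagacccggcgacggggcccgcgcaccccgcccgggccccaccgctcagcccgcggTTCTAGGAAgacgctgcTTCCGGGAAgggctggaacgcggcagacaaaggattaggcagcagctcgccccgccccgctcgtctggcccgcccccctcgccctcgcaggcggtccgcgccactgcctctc
HSD3B1: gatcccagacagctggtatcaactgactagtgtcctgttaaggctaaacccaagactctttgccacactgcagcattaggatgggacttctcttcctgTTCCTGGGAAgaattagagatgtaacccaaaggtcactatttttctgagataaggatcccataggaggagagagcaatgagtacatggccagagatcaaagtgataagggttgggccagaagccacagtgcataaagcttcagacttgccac
CCL26: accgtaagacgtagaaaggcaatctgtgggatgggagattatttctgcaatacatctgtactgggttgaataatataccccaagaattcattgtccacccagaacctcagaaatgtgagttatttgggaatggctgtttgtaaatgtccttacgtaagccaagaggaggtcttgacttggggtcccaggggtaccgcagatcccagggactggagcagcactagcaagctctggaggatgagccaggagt
SOCS1: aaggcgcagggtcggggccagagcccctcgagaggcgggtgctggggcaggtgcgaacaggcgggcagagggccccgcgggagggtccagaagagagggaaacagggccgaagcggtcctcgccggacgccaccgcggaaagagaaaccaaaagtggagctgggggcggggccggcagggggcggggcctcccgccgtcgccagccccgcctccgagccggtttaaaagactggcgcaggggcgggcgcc
The CISH stretch held 4 copies of TTCNNNGAA, and 4 of the 11523 tested genes with a RefSeq window (0.0347%) had as many in 1 window. HSD3B1, shown for the window with more matches of the 2 listed for it, held 1 copy of TTCNNNNGAA, and CCL26 and SOCS1 held neither motif in this stretch.

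Both motifs read the same on either strand and were searched in windows from 250 bases before to 50 after each listed start. Of the 14 genes that changed with IL-13, 9 had such a window, and SPINT2, RFLNA, NPPB and RNF19B were among those with no entry. Among the 9 genes, 2 held TTCNNNNGAA in any window, 3 held TTCNNNGAA and 4 held either (44.4%), against 6.45%, 8.25% and 13.7% of the 11523 tested genes with windows. PPFIBP2, a gene with 5 windows, held TTCATGAGAA and TTCTAGTGAA in 1 of them, from -116 to -107 and from -50 to -41 relative to that start. LIMA1 held TTCAGAGAA from -213 to -205, in 1 of 2 windows. These matches are a description of letters, and a gene with more windows has more chances of one.

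The targeted gene was examined first. IGF2BP3 measured 22.0, 25.5, 25.9, 21.8 and 29.1 CPM (counts scaled to the size of the library) in unstimulated knockdown libraries 1 to 5, and 17.7, 26.8, 35.1, 23.8 and 25.8 CPM with IL-13. The 2 groups overlapped fully, and IL-13 changed the level by a log2 fold change of 0.06, with an unadjusted edgeR p of 0.877. In the control line the same RNA measured from 20.7 to 48.8 CPM unstimulated and from 29.6 to 43.3 CPM with IL-13, so libraries of the lines overlapped in each treatment. The knockdown line was lower by a log2 difference of -0.43 unstimulated (two-sided exact permutation test over 5 against 5 libraries, p = 0.103, adjusted over 2 treatments 0.103) and -0.45 with IL-13 (exact p = 0.0476, adjusted 0.0952). The smallest p that 252 arrangements can give is 0.00794. Without unstimulated control library 1 the first difference was -0.60, and without IL-13 knockdown library 3 the second was -0.57, each with an exact adjusted p of 0.0159. No other fit that left out 1 library passed. Their exact adjusted p ran from 0.0952 to 0.183 unstimulated and from 0.0952 to 0.103 with IL-13. The word knockdown below therefore follows the label. The related RNA-binding proteins IGF2BP1 and IGF2BP2 had log2 fold changes with IL-13 of -0.11 and 0.10, and neither passed an unadjusted p of 0.05.

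Total estimated counts ran from 15533925 to 34260970 in unstimulated and from 14044352 to 33410570 in IL-13 libraries, with medians of 22098511 and 24976883. On the first principal component of the 10 libraries, which held 33.2% of the variance, both libraries numbered 3 stood apart at 20.8 (unstimulated) and 28.5 (IL-13), where the other 8 lay between -24.7 and 2.66. On the second component unstimulated library 2 (-19.8) and IL-13 library 5 (-19.2) stood apart, where the other 8 lay between 0.26 and 11. Of 8 epithelial markers, 5 had a median of at least 1 TPM (a share of the library's transcripts, corrected for transcript length) over the 10 libraries, led by the keratins KRT8 (573 to 1520 TPM) and KRT18 (450 to 910 TPM). The adhesion molecules EPCAM and CDH1 reached at most 0.618 and 0.683 TPM and were at 0 in 4 libraries each. All 6 mesenchymal markers were above that level, led by VIM (1050 to 1520 TPM) and COL1A1 (72.7 to 124 TPM). The leukocyte marker PTPRC was at 0 in all 10 libraries, and of 6 immune markers CD14 (11.8 to 25.2 TPM) and CD68 (6.26 to 12.5 TPM) were present. The summed goblet and secretory markers stayed at or under 0.41 TPM. The libraries labelled as epithelial thus held keratins of simple epithelium without its cadherin, beside mesenchymal genes.

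The question in these libraries was which RNAs change when knockdown cells meet IL-13. Of 16735 genes tested, 14 were called at a Benjamini-Hochberg adjusted p under 0.05 with edgeR's quasi-likelihood test (0.0837%), all of them higher with IL-13 and none lower. Among them were 2 feedback inhibitors of cytokine signalling (CISH, SOCS1), a chemokine (CCL26) and a steroid-converting enzyme (HSD3B1). They also held a protease inhibitor (SPINT2), the precursor of a natriuretic peptide (NPPB) and regulators of the cytoskeleton (LIMA1, RFLNA, PPP1R14A). In each of the 14 genes the 5 IL-13 libraries all lay above the 5 unstimulated ones, as they did in 98 of all genes tested (0.586%). The ratio of mean levels was over 2 in 12 of the 14. At an unadjusted p under 0.05 there were 173 genes (1.03%), 117 higher (0.699%) and 56 lower (0.335%), and over all genes the median log2 fold change was 0.0043. Genes without any change would be expected to pass at a share of 0.05, so these edgeR p-values were conservative. The shares in the tests between lines and between fractions, given below, were also under it. A gene that missed a threshold is therefore not shown to be unchanged.

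**Figure D1:**
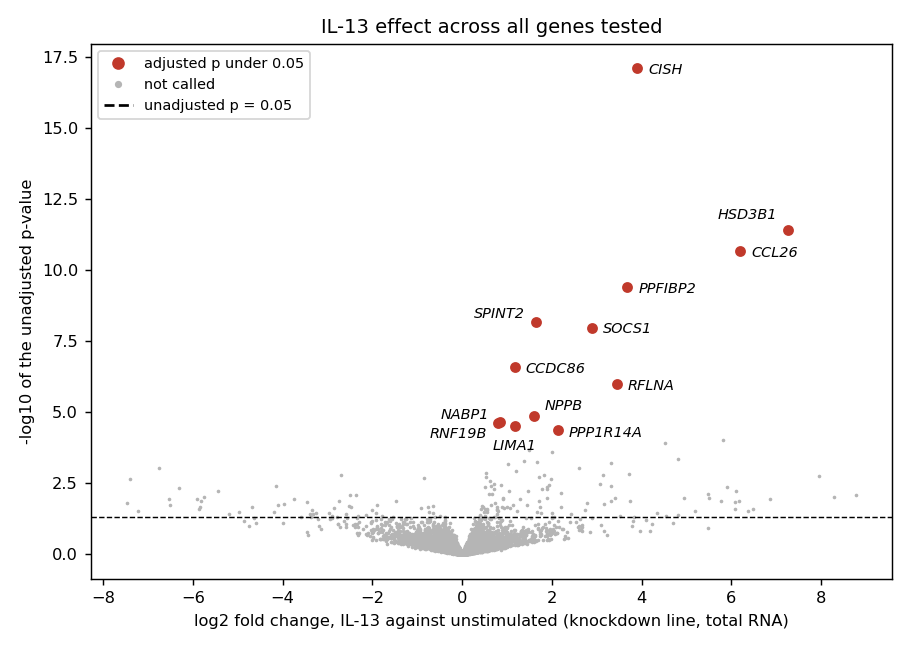
Each point is a tested gene, with the log2 fold change of IL-13 against unstimulated knockdown input libraries on the x axis and the -log10 of the unadjusted edgeR p-value on the y axis. The 13 called genes drawn, in red, all lie to the right of 0, with CISH at the top, and grey points spread to both sides.

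CISH had the smallest p of all genes tested. CISH (ENSG00000114737.16), an SH2-domain protein that blocks STAT docking at receptors, measured 2.18, 1.85, 2.08, 1.41 and 2.00 CPM unstimulated and 28.5, 26.7, 29.0, 33.5 and 24.0 CPM with IL-13. The lowest treated library was more than 10 times the highest untreated one. The mean rose from 1.90 ± 0.304 to 28.3 ± 3.47 CPM (SD, n = 5), 14.9-fold, with a log2 fold change of 3.90 ± 0.23 (SE) and an edgeR adjusted p of 1.34e-13. SOCS1 (ENSG00000185338.7), which inhibits JAK kinases directly, measured 1.19, 1.11, 1.42, 1.30 and 1.33 CPM unstimulated and 12.0, 8.12, 7.82, 10.4 and 9.27 CPM with IL-13. It rose 7.50-fold, with a log2 fold change of 2.90 ± 0.38 (SE) and an edgeR adjusted p of 3.0e-05. Its 5 unstimulated libraries lay close together, and the treated ones spread more widely.

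CCL26 (ENSG00000006606.9), an eotaxin that attracts eosinophils through CCR3, measured 0.142, 0.278, 0.132, 0.297 and 0.0606 CPM unstimulated and 15.0, 14.8, 12.6, 16.1 and 13.3 CPM with IL-13. The mean ratio was 78.8, on 25 reads in the unstimulated and 1875 in the treated libraries, with a log2 fold change of 6.20 ± 0.61 (SE) and an edgeR adjusted p of 1.22e-07. HSD3B1 (ENSG00000203857.10), a hydroxysteroid dehydrogenase needed for steroid hormone synthesis, was at 0 in unstimulated libraries 1, 3 and 5, at 0.0925 CPM in library 2 and at 0.054 CPM in library 4. With IL-13 it measured 5.69, 4.67, 6.22, 6.25 and 5.07 CPM (edgeR adjusted p = 3.18e-08). Its 4 unstimulated and 736 treated reads gave a ratio of 180 with an exact 95% interval of 70.1 to 663, which covers counting error only. HSD3B1 has a near-identical copy, HSD3B2, between which an estimator could split reads, so its level is uncertain to that extent.

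SPINT2 (ENSG00000167642.13), a Kunitz-type inhibitor of serine proteases at the epithelial surface, was abundant before treatment, at 97.6, 69.9, 52.2, 80.3 and 66.0 CPM. With IL-13 it measured 291, 218, 169, 217 and 251 CPM, 3.13-fold higher, with a log2 fold change of 1.65 ± 0.22 (SE) and an edgeR adjusted p of 2.17e-05. NPPB (ENSG00000120937.9), the precursor of B-type natriuretic peptide, measured 94.2, 92.9, 50.05, 59.9 and 93.2 CPM unstimulated and 272, 271, 191, 160 and 292 CPM with IL-13. Libraries 3 and 4 were low in both groups. It rose 3.04-fold, with an edgeR adjusted p of 0.0244, and was the most abundant called gene per transcript length, at 170 TPM unstimulated and 516 TPM with IL-13.

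Of the genes tied to the actin cytoskeleton, LIMA1 (ENSG00000050405.14), which crosslinks actin filaments, measured 156, 109, 187, 157 and 119 CPM unstimulated and 240, 299, 410, 395 and 293 CPM with IL-13 (2.25-fold, edgeR adjusted p = 0.0433). RFLNA (ENSG00000178882.15), a filamin-binding protein that organises actin, measured 2.75, 2.96, 0.363, 1.70 and 2.73 CPM unstimulated and 36.6, 23.3, 10.5, 20.3 and 23.5 CPM with IL-13. Library 3 was the lowest in both groups, and the mean rose 10.9-fold with an edgeR adjusted p of 0.00219. PPP1R14A (ENSG00000167641.11), an inhibitor of myosin phosphatase, measured 3.41, 2.13, 1.55, 1.97 and 0.969 CPM unstimulated and 16.3, 6.63, 4.11, 7.93 and 8.99 CPM with IL-13. Its groups came as close as 3.41 and 4.11 CPM, and it rose 4.38-fold with an edgeR adjusted p of 0.0499.

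PPFIBP2 (ENSG00000166387.14), a liprin scaffold protein, measured 0.569, 1.67, 3.43, 1.32 and 2.97 CPM unstimulated and 17.5, 22.4, 33.9, 27.1 and 26.8 CPM with IL-13. It rose 12.8-fold, with a log2 fold change of 3.68 ± 0.40 (SE) and an edgeR adjusted p of 1.69e-06, and library 3 was the highest in both groups. CCDC86 (ENSG00000110104.13), a coiled-coil protein of the nucleus, measured 70.3, 55.8, 52.2, 58.4 and 49.2 CPM unstimulated and 152, 120, 121, 147 and 102 CPM with IL-13. It rose 2.24-fold, with a log2 fold change of 1.17 ± 0.18 (SE) and an edgeR adjusted p of 0.00062. The smallest changes among the called genes were those of NABP1 (ENSG00000173559.15), a single-stranded DNA-binding protein, and RNF19B (ENSG00000116514.17), an E3 ubiquitin ligase. NABP1 measured 16.2, 14.0, 12.7, 17.9 and 9.27 CPM unstimulated and 24.6, 23.3, 23.2, 30.9 and 24.1 CPM with IL-13, 1.80-fold. RNF19B measured 49.7, 51.3, 41.7, 44.1 and 50.2 CPM unstimulated and 86.6, 89.2, 67.2, 87.4 and 80.6 CPM with IL-13, 1.74-fold. Both had an edgeR adjusted p of 0.0371.

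**Figure D2:**
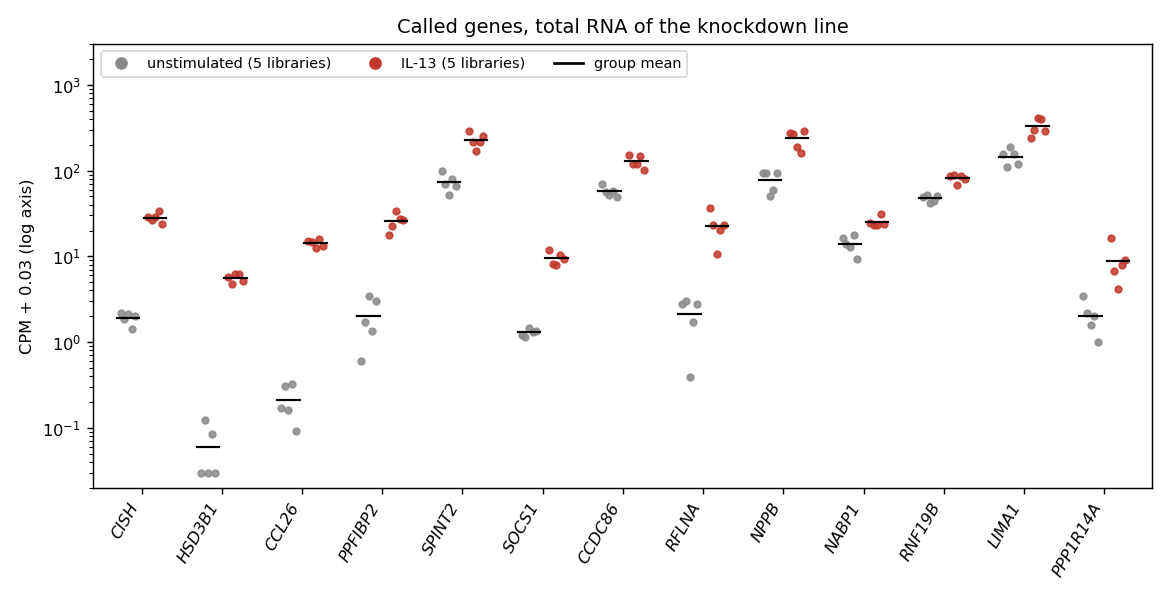
Levels of 13 called genes in each of the 10 knockdown input libraries, as CPM with 0.03 added so that libraries at 0 can be drawn, on a log axis. Grey points are the 5 unstimulated and red points the 5 IL-13 libraries, black bars are group means, and in every gene the red points all lie above the grey ones, with PPP1R14A the closest.

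CISH, HSD3B1, CCL26, PPFIBP2, SPINT2, SOCS1, CCDC86 and RFLNA kept their call in each of the 10 fits that left out 1 knockdown input library. NPPB lost it in 5, NABP1 in 7, LIMA1 and PPP1R14A in 8 and RNF19B in 9 of those 10 fits, with adjusted p-values reaching 0.419 (PPP1R14A). Without both libraries numbered 3, a choice made after seeing that they stood apart, 8 genes were called, the same 8 that held in each fit. With the DESeq2 Wald test in place of edgeR, 22 genes were called, 21 higher and 1 lower, among them all 14. The lower one, ENSG00000277067, had a log2 fold change of -21.9 there, and ENSG00000260537, among the higher, 23.2. All genes in the edgeR fit lay between -7.47 and 8.78. These outsize estimates, of genes not called by edgeR, are not read as changes.

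The 10 genes of smallest p that missed the call were 9 higher and 1 lower with IL-13, and in 9 of them the libraries of the groups did not overlap. Over all genes tested, 0.586% were higher and 0.293% lower without overlap. The 10 were picked by small p in these same libraries, so their separation is no further support. The serpin SERPINB4 was at 0 in unstimulated libraries 1, 2, 3 and 5 and at 0.054 CPM in library 4, and measured 1.12, 1.18, 0.234, 1.598 and 1.36 CPM with IL-13 (edgeR adjusted p = 0.102). Its reads, 2 against 140, gave a ratio of 68.5 with an exact interval of 18.6 to 572. SERPINB3, its near-identical neighbour, had 5 against 84 reads, a ratio of 16.5 (6.78 to 52.0) and an unadjusted p of 0.00147, and reads could be split between the pair. TGM2, a transglutaminase that crosslinks proteins, measured 8.35, 2.78, 1.49, 8.11 and 0.424 CPM unstimulated and 118, 22.6, 48.8, 239 and 60.7 CPM with IL-13. Its treated libraries ranged over 10-fold, and the log2 fold change of 4.52 ± 0.92 (SE) had an edgeR adjusted p of 0.125. It was called in 6 of 21 alternative fits, for example with an adjusted p of 0.0378 in edgeR on the 10 libraries alone and of 0.00863 in DESeq2.

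ALOX15, a lipoxygenase that is a classic IL-13 target in airway cells, was at 0 in 3 unstimulated libraries and at 0.0463 and 0.033 CPM in the others. With IL-13 it measured 0.29, 0.314, 0.836, 1.15 and 0.357 CPM, a read ratio of 42.1 (exact interval 11.3 to 353) with an edgeR adjusted p of 0.388. The hyaluronan synthase HAS3 went from 7.33 ± 1.80 to 23.3 ± 12.4 CPM (SD, n = 5), and the secreted Wnt inhibitor SFRP1 from 127 ± 44.8 to 330 ± 134 CPM, the 1 gene of the 10 whose groups overlapped. Both had an edgeR adjusted p of 0.435. The small GTPase RASD2 had a log2 fold change of 1.48 (adjusted p = 0.205), the potassium channel KCNK3 of 2.00 (0.227), the homeobox factor MSX1 of 3.31 (0.460) and the glycosyltransferase GCNT2 of 1.01 (0.475), all in edgeR. ZNF407-AS1 was the lower one: it measured 0.569, 0.278, 0.594, 0.757 and 0.727 CPM unstimulated and 0 in all 5 IL-13 libraries. That is at least 4.57-fold lower, against a floor of 3 counts per library, with an edgeR adjusted p of 0.625. Its means, unstimulated and with IL-13, were 0.0698 and 0.120 CPM in control input and 0.0228 and 0.0676 CPM in knockdown polysome RNA. The lower level was thus not seen in those libraries. It is an antisense RNA, and whether the counting used strand is not stated, so reads of its partner gene cannot be told apart from it.

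Genes that IL-13 is known to induce in airway epithelium were only partly measurable in these cells. Of 53 genes in that list, 22 were abundant enough to be tested, of which 5 were called (CISH, HSD3B1, CCL26 and SOCS1 among them), against 0.0837% of all genes tested. At an unadjusted p under 0.05, 10 were higher, against 0.699% of all genes, and none was lower. The 5 of these that missed the call were SERPINB4, TGM2, ALOX15, SERPINB3 and the checkpoint ligand PDCD1LG2, which went from 6.43 ± 1.29 to 11.2 ± 3.01 CPM (SD, n = 5). The unadjusted edgeR p of PDCD1LG2 was 0.0295, its adjusted p was 1, and its groups overlapped. The median log2 fold change of the 22 was 0.82, or 0.72 with genes at the floor set to their bounds, against 0.0043 over all genes. HSD3B1, SERPINB4, ALOX15 and SERPINB3 were at or under 3 counts in every unstimulated knockdown input library. They passed the filter through groups where they were higher, while members low in all groups were left out. The counts and the median of this list therefore lean upward, and the bounds do not remove that. Of the list members that were not tested, 12 had no read in any of the 10 libraries, among them the goblet cell genes CLCA1, AGR2, TFF3 and RETNLB. The mucin MUC5AC had 15 reads over the 5 unstimulated and 14 over the 5 treated libraries. The serpin SERPINB2 had 1 and 19 reads and was below the filter. These 2 genes were singled out after their values were seen.

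The receptor and its kinases were expressed, and none of them passed the test for a change with IL-13. Per transcript length, the receptor chains were lower than JAK1, TYK2 and STAT6 and higher than JAK2 and JAK3. IL13RA1 measured 12.2 TPM unstimulated and 13.2 TPM with IL-13, IL4R 9.86 and 8.62 TPM, JAK1 31.2 and 36.0 TPM, TYK2 32.5 and 36.8 TPM and STAT6 30.4 and 32.8 TPM. JAK2 and JAK3 stayed at or under 1.18 TPM in every library. IL13RA1 measured 38.0, 46.4, 45.7, 35.2 and 33.3 CPM unstimulated and 31.9, 33.7, 48.8, 35.1 and 48.4 CPM with IL-13, a log2 fold change of -0.01 ± 0.26 (SE). IL4R had -0.20 ± 0.31, and STAT6 0.12 with an unadjusted edgeR p over 0.05. IL2RG, the common gamma chain of the type I IL-4 receptor, and the decoy receptor IL13RA2 had no read in any of the 10 libraries. Of the 25 genes in the receptor and signalling list, 23 were tested, none was called and none reached an unadjusted p of 0.05, with a median log2 fold change of 0.02. The adaptor GAB2 was the 1 member whose groups did not overlap, with the IL-13 libraries lower as in 0.293% of all genes, at a mean of 15.9 CPM unstimulated and 12.8 CPM with IL-13. It was not called.

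CISH and SOCS1 were the 2 members of the SOCS family that were called. The other 6 members, SOCS2 to SOCS7, had log2 fold changes between -0.22 and 0.09, and none reached an unadjusted p of 0.05. SOCS3, which is known as a target of STAT3, measured 32.9 CPM unstimulated and 28.2 CPM with IL-13. Per transcript length, CISH rose from 1.202 to 17.9 TPM and SOCS1 from 1.40 to 10.2 TPM, beside SOCS3 at 15.0 and 12.7 TPM. SOCS2 and SOCS4 to SOCS7 had mean levels with IL-13 between 1.502 and 4.30 TPM. Of the 19 feedback inhibitors in the list, phosphatases and PIAS proteins included, all were tested, CISH and SOCS1 were called, and the median log2 fold change was -0.01.

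**Figure D3:**
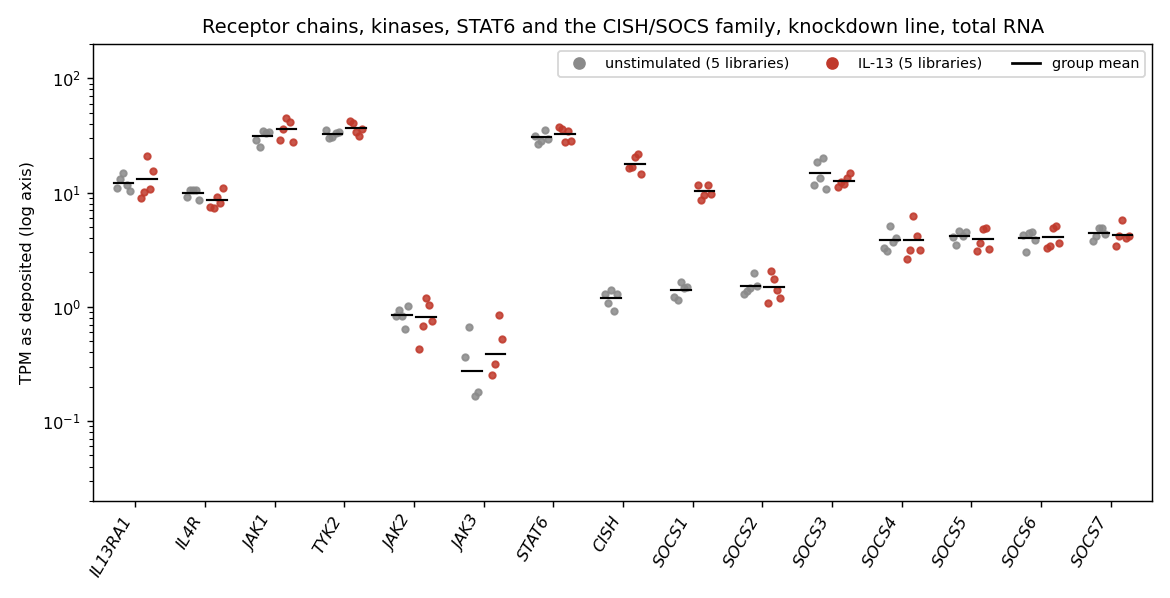
TPM, as deposited, of the IL-13 receptor chains, the Janus kinases, STAT6, CISH and the SOCS genes in each knockdown input library, on a log axis. Grey points are unstimulated and red points IL-13 libraries, bars are group means, and JAK3 was at 0 in 1 unstimulated and 1 IL-13 library. CISH and SOCS1 are the genes whose red and grey points separate.

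Other gene groups held few or no called genes. Among 34 chemokines and cytokines, 19 were tested and CCL26 was the 1 called (median log2 fold change -0.03). CCL2, a monocyte chemokine, measured 8.84 ± 2.80 and 13.9 ± 3.87 CPM (SD, n = 5), and the neutrophil chemokine CXCL8 stayed at or under 0.522 CPM in every library. None of the 15 tested NF-kB response genes reached an unadjusted p of 0.05, with IRF1, at 91.9 and 121 CPM, of smallest p (0.0993). Of 39 interferon-stimulated genes tested, 34 lay above 0 with a median of 0.15, none was called and none reached an unadjusted p of 0.05. ISG15 measured 45.1 and 54.2 CPM and MX1 15.8 and 19.4 CPM. Of 26 genes of cholesterol and fatty acid synthesis, 25 lay above 0 with a median of 0.14, and again none reached an unadjusted p of 0.05, for example LSS at 309 and 369 CPM and SCD at 911 and 1137 CPM. Over all 16735 genes tested, 8533 lay above 0. In control input the median was -0.009 for the interferon list and 0.278 for the cholesterol and fatty acid list. Genes of one pathway are not independent of each other, and no test is given for these counts.

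Extracellular matrix and remodelling genes had 34 tested members, none called, 14 above 0 and 20 below, with a median of -0.06. The 3 members past an unadjusted p of 0.05, all higher, were TGM2, HAS3 and the lysyl oxidase LOXL4, which went from 0.717 ± 0.113 to 2.74 ± 1.01 CPM (SD, n = 5) without overlap. LOXL4 had an edgeR adjusted p of 1 over all genes. The matrix glycoprotein TNC measured 241 and 444 CPM on average, with overlap. Of 33 immediate early genes tested, none was called, 10 lay above 0 and 23 below, and the median was -0.15. The transcription factor KLF2 was the 1 member past an unadjusted p of 0.05: it measured 3.604, 3.33, 3.40, 3.76 and 2.24 CPM unstimulated and 9.79, 6.47, 8.09, 10.4 and 10.8 CPM with IL-13, without overlap (unadjusted p = 0.00574). KLF2 was called in edgeR on the 10 libraries alone (adjusted p = 0.00846).

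Cell cycle genes (32 tested, median 0.02), amino acid stress genes under ATF4 (21 tested, median 0.0012) and 17 tested mRNAs described as IGF2BP targets (median -0.08, 4 above 0 and 13 below) held no called gene and none at an unadjusted p under 0.05. CCND1, a cyclin that is in the first and the last of these lists, measured 46.4, 14.4, 6.80, 30.4 and 14.5 CPM unstimulated and 16.0, 9.30, 6.05, 16.0 and 8.99 CPM with IL-13, with overlap. Of the 8 epithelial markers, KRT8 (log2 fold change 0.71) and KRT18 (0.61), both past an unadjusted p of 0.05 with an edgeR adjusted p of 1, had higher means with IL-13, with overlap between the groups and without being called, and the summed level of that list ran from 1176 to 1690 TPM unstimulated and from 1489 to 2685 TPM with IL-13. The 6 mesenchymal markers summed to between 1258 and 1692 TPM and between 1361 and 1687 TPM. Their part in the other results was not tested, and in such bulk libraries a change in the share of a cell type and in RNA per cell cannot be told apart.

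**Figure D4:**
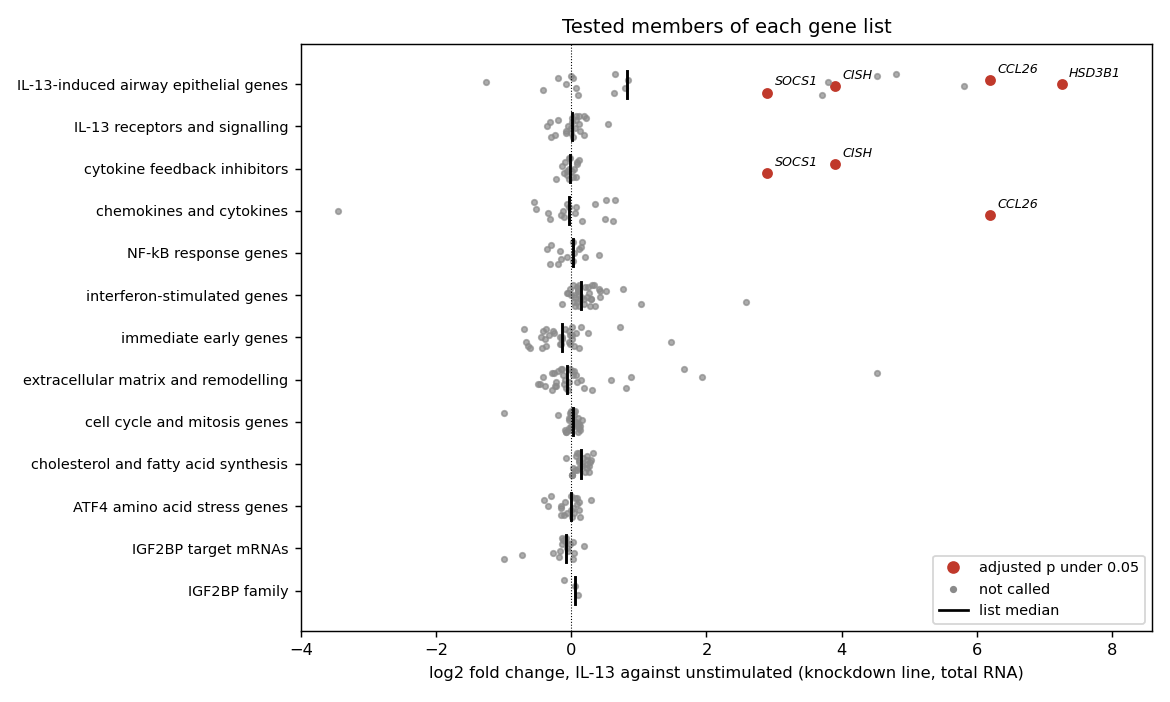
Log2 fold change with IL-13 in knockdown input of the members of 13 gene lists, 1 list a row, with the list median as a black bar. Red points are called genes, all of them in the IL-13-induced, feedback and chemokine lists, and the medians of the other lists lie between -0.15 and 0.15.

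The same response was then set beside that of the control line, to ask whether it differed with the knockdown. In control input 13 genes were called (0.0777%), of which 12 were shared with the 14 of the knockdown line (85.7% of the 14 and 92.3% of the 13). The 2 not shared were RNF19B, with an adjusted p of 0.183 in control cells, and PPP1R14A, with 0.0662, both from edgeR. The difference between the lines was itself tested, and no gene was called (0%), with 153 genes at an unadjusted p under 0.05 (0.914%). For the 14 genes the response was larger in the knockdown line in 7 and smaller in 7, the median difference was 0.03 on the log2 scale, and none reached an unadjusted p of 0.05. A 95% interval of the difference could be given for 13, all but HSD3B1, and each included 0. The narrowest interval, that of RNF19B, reached 0.47 log2 units to either side of the estimate.

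CISH went from 2.07 to 33.3 CPM in control cells, a log2 fold change of 4.01, so that the line difference was -0.11 (95% interval -0.77 to 0.55). CCL26 went from 0.0884 to 12.6 CPM there, and its difference was -0.80 (-2.63 to 1.02). SOCS1 went from 1.67 to 10.8 CPM, a difference of 0.21 (-0.86 to 1.28). PPFIBP2 went from 4.07 to 35.1 CPM, a difference of 0.57 (-0.57 to 1.72). RNF19B and PPP1R14A, called in 1 line, differed by 0.12 (-0.35 to 0.59) and 0.06 (-1.21 to 1.32). HSD3B1 reached 1.44 to 8.06 CPM in the 5 treated control libraries and 4.67 to 6.25 CPM in the 5 treated knockdown libraries, and its difference had an unadjusted p of 0.902. MSX1 was called in control input (edgeR adjusted p = 0.0261) and not here, with a difference of -1.21 (-3.67 to 1.26). TGM2, not called in input of either line, had the wide difference of 2.29 (-0.34 to 4.92, unadjusted p = 0.0892). The DESeq2 Wald test called 6 genes for the line difference, 3 in each direction, where edgeR called none.

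The 5 genes of smallest p for that line difference were H3C3, RMRP, ENSG00000187951, RNU4-2 and RPPH1, each with an edgeR adjusted p of 0.531. Among them RMRP and RPPH1 are the RNA parts of RNase MRP and RNase P, RNU4-2 is a spliceosomal RNA and H3C3 a histone gene, whose transcripts are made without a poly(A) tail. RMRP went from 11.1 to 4.92 CPM in knockdown and from 6.88 to 44.7 CPM in control cells, and RPPH1 from 14.0 to 5.94 and from 8.29 to 60.6 CPM. The summed level of 7 such RNAs (RMRP, RPPH1, RNU4-2, RN7SK, RN7SL1, RN7SL2 and RNY3) ran from 74.7 to 2991 CPM among the 5 treated control libraries, against 62.7 to 198 CPM among the 5 treated knockdown libraries. Among unstimulated libraries it ran from 55.2 to 275 CPM in control and from 66.7 to 782 CPM in knockdown cells, where library 1 was the highest at 782 CPM and the next at 247 CPM. The sum therefore varied 40-fold within the treated control group of libraries made with poly(A) selection, and its part in the line difference was not tested.

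Several lists had a median in the control line that the knockdown line did not show: chemokines -1.46 against -0.03, immediate early genes -1.17 against -0.15, NF-kB genes -0.89 against 0.03 and ATF4 genes -0.67 against 0.0012. At an unadjusted p under 0.05 for the difference there were 5, 5, 1 and 2 of their members, and none was called. Unstimulated control library 1 held 132 CPM of CXCL8, against 0.0598 to 0.582 CPM in the other 4, and 61.1 CPM of CCL2, against 4.09 to 9.09 CPM. KLF2 was also high there, at 27.5 CPM against 3.08 to 5.41 CPM, and its difference between lines was 1.31 (-0.10 to 2.72). The part of that library in these medians was not tested.

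**Figure D5:**
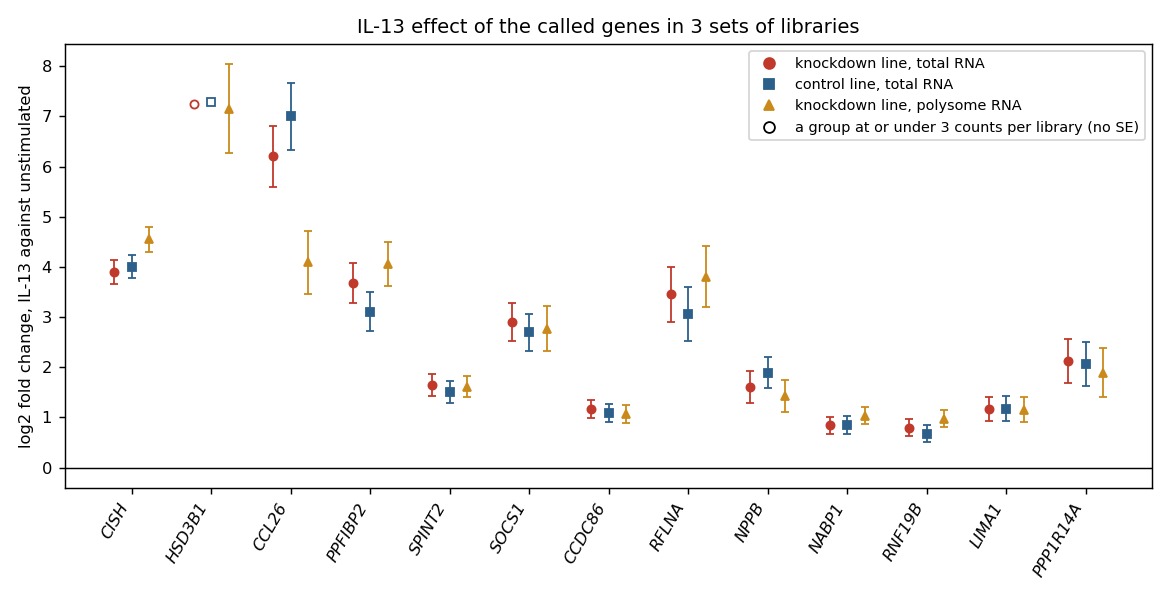
Log2 fold change with IL-13, on the y axis, of 13 called genes in knockdown input (red circles), control input (blue squares) and knockdown polysome RNA (ochre triangles), with bars of 1 SE. Open symbols mark genes with a group at or under 3 counts in every library, for which no SE is given. The 3 values of most genes lie close together, with CCL26 lower and CISH higher in polysome RNA.

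Polysome RNA of the same line was compared to ask whether the response carried over to ribosome-bound RNA. There 16 genes were called (0.0956%), of which 12 were among the 14 (85.7% of the 14 and 75% of the 16), and 11 genes were called in knockdown input, control input and knockdown polysome alike. TGM2 and RASD2, which missed the call in input, were among the 16 (edgeR adjusted p = 0.0488 and 0.0277). NPPB (edgeR adjusted p = 0.0660) and PPP1R14A (0.239) were the 2 without a call in polysome RNA. The test of the shift between fractions called no gene (0%), with 219 at an unadjusted p under 0.05 (1.31%). Among the 14, CCL26 was the 1 gene whose shift had a 95% interval without 0: its response was smaller in polysome RNA by 2.11 log2 units (-3.88 to -0.35, unadjusted p = 0.0183, not called after adjustment). It measured 0, 0.0561, 0.857, 0.516 and 0.978 CPM in unstimulated polysome libraries and 6.19, 9.65, 9.11, 11.3 and 1.73 CPM with IL-13. Treated polysome library 5 held 4 reads of it, in a library of 2302952 counts. Without the 3 knockdown polysome libraries of under 5000000 counts, a choice made after seeing their depth, the shift was -1.89 with an unadjusted p of 0.0298. CISH had a shift of 0.65 in the other direction (-0.04 to 1.34), from 2.23 to 50.4 CPM. The other called genes with an interval, for example SPINT2 at -0.03 (-0.65 to 0.59) and CCDC86 at -0.10 (-0.63 to 0.43), had intervals that held 0.

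The 5 genes of smallest p for the shift were ENSG00000256632, PDCD6P1, CEP350, ENSG00000273734 and ZNF816-ZNF321P, none called for the shift. CEP350, a centrosomal protein, measured 11.3 and 8.30 CPM in knockdown input. In knockdown polysome RNA it was at 0 in all 5 IL-13 libraries and reached 4.74 CPM in the highest unstimulated one, with a median of 0 (unadjusted edgeR p for the shift = 0.000311). Its IL-13 effect within knockdown polysome RNA was called as lower (log2 fold change -7.78, edgeR adjusted p = 0.0339), so CEP350 was among the 16 genes called there. With an unstimulated median of 0, that call rests on few libraries. PDCD6P1 is a pseudogene and ZNF816-ZNF321P a readthrough transcript, between which and their parent genes reads can be split. The DESeq2 Wald test called 5 genes for the shift, 3 higher and 2 lower.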

How the data were processed

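The deposited values were estimated counts and TPM (abundances scaled by transcript length) per gene for 40 libraries. The submitters' processing notes name Trimmomatic, Salmon, MultiQC and DESeq2, without stating how each was used. Genome build, annotation, versions and strand setting are not given in the sources used here. The labels describe poly(A)-selected RNA and name 2 library kits. No per-sample column was without a sample of the series (0). Symbols were matched by full ID for 61738 of 62263 genes, by unversioned ID for 508, and not for 17.

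The deposited estimated counts were rounded and fitted with edgeR 4.0.16 (R 4.3.3, limma 3.58.1): TMM factors, filterByExpr over 8 groups, 1 mean per group, quasi-likelihood test with 32 residual degrees of freedom, and Benjamini-Hochberg adjustment over 16735 genes. The filter kept at least 99.914% of each library's counts. CPM were computed with TMM factors. Deposited TPM of genes sum to 82.3% to 85.9% of the full scale and were used for levels between genes only. Standard errors and 95% intervals come from the fit's working weights and quasi-likelihood variance, and none is given where a group had no library above 3 counts. There, pooled counts and an exact conditional interval are given. IGF2BP3 was tested on log2(CPM + 1) by exact permutation. Motifs were searched in RefSeq start-site windows (GRCh38.p14).

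Named genes were all called genes, the next 10 by p, receptor, JAK, STAT6, SOCS and IGF2BP genes, IL-13-list members with unadjusted p under 0.05, up to 4 of each other list by p, and the 5 of smallest p in each difference test. Of the 14 called genes, 1 is counted in the totals and not reported here. Members and lists were chosen with earlier results of these data known. The fit was tested on simulated data. Alternatives were DESeq2 1.42.0 (size factors, Wald test), filters, fewer libraries, a replicate block and leaving out each library. No 2 libraries of a group agreed within sampling noise (lowest chi-square per degree of freedom 15.27).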

Additional observations from a re-analysis of the deposited data

Results flagged for a closer look

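Among 85 group values examined, 3 had 1 of 5 libraries far from the other 4, where chance gives about 1 in 20 (4.2 values). SERPINB4 was at 0.054038 CPM, 2 reads, in unstimulated knockdown library 4 and at 0 in the other 4. With those 4 at 0, any level above 0 would have been flagged, so the chance rate does not apply to SERPINB4. NABP1 was at 30.858 CPM in IL-13 knockdown library 4, against 23.163 to 24.567 CPM in the others of its group. IL4R was at 33.745 CPM in IL-13 knockdown library 5, against 22.013 to 23.865 CPM in the others.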

How the results depend on the processing

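The 14 calls for the IL-13 effect became 22 with the DESeq2 Wald test (21 higher, 1 lower), 9 among genes of at least 10 CPM and 8 without both libraries numbered 3, and between 8 and 12 when 1 library was left out. The other alternatives without a block gave 12 to 19 calls. Among the 19 calls of edgeR on the 10 libraries alone, RASGRF1 was lower with IL-13 (log2 fold change -0.757, adjusted p = 0.0286). RASGRF1 was also called lower by edgeR on those 10 with the replicate block (-0.762, adjusted p = 0.0472). The lower call of the Wald test, and ENSG00000260537 among its higher calls, had the outsize estimates given above. CISH, HSD3B1, CCL26, PPFIBP2, SPINT2, SOCS1, CCDC86 and RFLNA were called under every alternative in which they were tested. No called gene changed direction. Among named genes that were not called, the log2 fold changes of IL13RA1 (-0.09 to 0.07), JAK2 (-0.22 to 0.07), JAK3 (-0.09 to 1.51), SOCS4 (-0.17 to 0.11), SOCS6 (-0.03 to 0.09), SOCS7 (-0.11 to 0.01) and IGF2BP3 (-0.07 to 0.17) lay on both sides of 0. The difference between lines and the shift between fractions had 0 calls with edgeR, and 6 and 5 with the Wald test. The cause was not tested. Matrix genes had 1 call with the Wald test, with no filter, with the 20 input libraries and without the input and polysome libraries numbered 1 of unstimulated control cells (38 libraries), and 2 with the 10 libraries alone. Immediate early genes had 1 call with the 10 libraries alone and 1 with those 38 libraries. Among genes of at least 10 CPM, where fewer genes are tested, the IL-13 list had 1, feedback inhibitors 1 and chemokines 0 calls. Leaving out 1 library gave 4 to 5 calls in the IL-13 list, 2 in the feedback and 1 in the chemokine list, and 0 in the others. IGF2BP3 ranged from -0.60 to -0.30 unstimulated and from -0.57 to -0.33 with IL-13.

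The replicate numbers were not taken to pair the samples: the correlations of same-numbered libraries were 0.400, 0.0504, 0.682, 0.353 and -0.175, and 3 of 5 IL-13 libraries correlated best with their own number. IL-13 library 2 correlated best with unstimulated library 5 (0.446) and IL-13 library 5 with unstimulated library 2 (0.568). With the replicate block, 12 genes were called over 40 libraries and 41 (35 higher, 6 lower) over the 10, against 19 over the same 10 without it. Of the 41, 13 were among the 14, and KRT8 (adjusted p = 0.0113), KRT18 (0.0371) and SFRP1 (0.00147) were called by edgeR in that fit. With the block, matrix genes had 1 call over 40 and 3 over 10 libraries, immediate early genes 2 over 10, and IGF2BP3 had exact p-values of 0.125 and 0.0625.

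On simulated data, 28% of 200 genes changed 2-fold were recovered (16289 genes, 12.5% of calls false) and 68.5% of 200 changed 4-fold (16320 genes, 5.52% false). Apart from these changes, the simulation gave all 40 libraries the same mean per gene and the spread of the 40-library fit. It held no differences between lines or fractions. Its rates therefore need not hold for the 10 libraries, where the spread was smaller (0.273 against 0.43).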
